A study of Mus musculus with 6 samples.

Results

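The regions described here are the genomic intervals that OCT4 and NANOG both occupied in Esrrb-high and in Esrrb-medium embryonic stem cells (ESCs) and that neither factor occupied any longer in Esrrb-negative cells. They were selected on list membership alone. An interval had to be present, with the same start and end, in the OCT4 and NANOG lists of the high and medium populations and absent from both lists of the negative population. This rule selected 842 of the 23767 distinct intervals in the 6 lists, or 3.54% (95% Wilson interval 3.32% to 3.79%). They made up 22.9% of the 3675 regions listed for both factors in Esrrb-high cells and 41.4% of the 2034 Class I regions. Class I regions are those listed for both factors in high and for neither in negative. The 842 intervals are called the medium-retained Class I regions below.

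OCT4 and NANOG binding was mapped by ChIP-Seq in E14Tg2a Esrrb-2a-GFPd-IBIH ESCs, named E-GFPd1 in the study, a clonal mouse line in which a destabilised GFP was targeted behind the Esrrb reading frame at both alleles, so that fluorescence follows Esrrb expression. All 6 groups were the same line in LIF and serum, fixed and sorted by GFP: Esrrb-High cells were the top 10%, Esrrb-Medium cells the 15% of the distribution just above negative, and Esrrb-Negative cells lay below (the source labels of these libraries read low, the fraction labels negative). Each population was precipitated with a goat anti-OCT4 and a rabbit anti-NANOG antibody, with 1 library per factor and population from 3 pooled ChIPs. No spread between replicates can be had, and the intervals given below cover only counting over regions in these 6 libraries, where regions are not replicates of a condition.

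OCT4, encoded by Pou5f1, binds an octamer, mostly beside SOX2 on a composite Oct-Sox element, and stays expressed from naive to primed pluripotency. NANOG and the orphan nuclear receptor ESRRB belong to the naive network that LIF signalling through STAT3 sustains, and both decline as cells leave the naive state. ESRRB binds an extended nuclear receptor site as a monomer, and shares many enhancers in ESCs with OCT4, SOX2, NANOG and KLF factors.

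The lists held between 286 intervals (NANOG in negative) and 14464 intervals (OCT4 in medium), with positions only. They give no read count, height or p-value, so depth is unknown here. The study merged overlapping peaks of all libraries and called a region lost where under 50% of its highest depth-normalised signal remained. For a region listed for the same factor in another population, absence from a list therefore meant less signal than that, and not necessarily none. Some regions were listed for a factor in no population, and there the 50% rule alone does not say what absence meant. Where a factor is said below to be lost, missing or not kept, the region was not listed in this sense. The signal behind the lists was not part of them, so no values can be given for regions just inside and just outside that threshold.

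Sequences of 8 medium-retained Class I regions are shown because they lie at genes of the naive network, of the LIF pathway and of ERK feedback and are up to 300 bp wide. Regions with more of the motifs searched came first and ties went by gene name, so the region at Tdh, which also holds 1 motif, is not among them. They are the mm9 plus strand, 5′ to 3′. Capitals mark matches to the motifs compared below: the octamer ATGCAAAT; Oct-Sox, which is the SOX element CNTTGTN directly followed by the octamer with up to 2 mismatches; ESRRB, TCAAGGTCA with up to 1 mismatch; KLF, GGGNGTGG; and a NANOG-type homeodomain core, TAATGG. Either strand counted as a match, so a minus-strand match appears as its reverse complement.
Esrrb, near the internal start site, chr12:87811892-87812131: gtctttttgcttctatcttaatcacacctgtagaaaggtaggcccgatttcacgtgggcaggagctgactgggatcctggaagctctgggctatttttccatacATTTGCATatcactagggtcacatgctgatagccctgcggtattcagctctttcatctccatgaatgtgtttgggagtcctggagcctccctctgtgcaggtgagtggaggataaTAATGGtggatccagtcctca
Esrrb, intron, chr12:87819932-87820151: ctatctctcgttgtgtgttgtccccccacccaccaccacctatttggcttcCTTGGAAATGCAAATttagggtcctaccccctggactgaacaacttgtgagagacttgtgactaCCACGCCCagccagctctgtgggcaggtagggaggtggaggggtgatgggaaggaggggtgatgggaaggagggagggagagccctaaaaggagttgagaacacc
Il6st, upstream, chr13:113252692-113252831: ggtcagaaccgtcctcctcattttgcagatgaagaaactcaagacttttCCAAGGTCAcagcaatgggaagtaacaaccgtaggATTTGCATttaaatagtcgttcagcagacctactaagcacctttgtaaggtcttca
Lifr, upstream, chr15:7066832-7067051: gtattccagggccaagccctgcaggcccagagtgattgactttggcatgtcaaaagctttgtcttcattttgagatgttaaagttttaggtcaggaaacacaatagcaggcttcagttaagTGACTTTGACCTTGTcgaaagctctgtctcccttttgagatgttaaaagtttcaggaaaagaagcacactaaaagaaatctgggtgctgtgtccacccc
Etv5, intron, closer to the gene's end, chr16:22398592-22398691: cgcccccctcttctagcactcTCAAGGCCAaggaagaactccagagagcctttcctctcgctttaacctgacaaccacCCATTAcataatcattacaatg
Etv5, intron, closer to the gene's start, chr16:22412992-22413251: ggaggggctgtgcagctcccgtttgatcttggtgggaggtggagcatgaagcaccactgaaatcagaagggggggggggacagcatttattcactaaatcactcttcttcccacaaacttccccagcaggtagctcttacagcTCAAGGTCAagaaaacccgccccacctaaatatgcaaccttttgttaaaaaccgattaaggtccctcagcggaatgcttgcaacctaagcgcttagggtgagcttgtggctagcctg
Jam2, upstream, chr16:84769552-84769751: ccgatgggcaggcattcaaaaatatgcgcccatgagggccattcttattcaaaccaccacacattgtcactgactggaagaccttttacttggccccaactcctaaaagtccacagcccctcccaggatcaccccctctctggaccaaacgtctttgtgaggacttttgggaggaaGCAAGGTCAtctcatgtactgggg
Klf2, downstream, chr8:74858332-74858451: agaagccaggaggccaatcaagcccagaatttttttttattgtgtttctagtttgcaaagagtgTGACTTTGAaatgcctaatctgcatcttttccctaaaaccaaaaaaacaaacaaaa

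The first Esrrb region carried an octamer on the minus strand starting at its base 105, and a homeodomain core starting at base 220. The second Esrrb region carried an octamer at base 59 inside an Oct-Sox match with 2 mismatches that began at base 52, and a KLF match at base 116. The region upstream of Il6st held an ESRRB match with 1 mismatch at base 50 and an octamer at base 85. The Lifr region held 2 overlapping ESRRB matches, at bases 122 and 128, each with 1 mismatch. The Etv5 region closer to the gene's start carried the only exact ESRRB match among the 8 sequences, at base 144. A match says that these letters are present, not that a factor was bound through them. In these sequences matches are marked over the whole region. Elsewhere a region is said to hold a motif where a match lay within 100 bp of its centre. The outer parts of wide regions were thus not searched, and beside narrow regions a match can lie outside the interval. The homeodomain core at base 220 of the first Esrrb sequence is not counted under that rule.

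**Figure D1:**
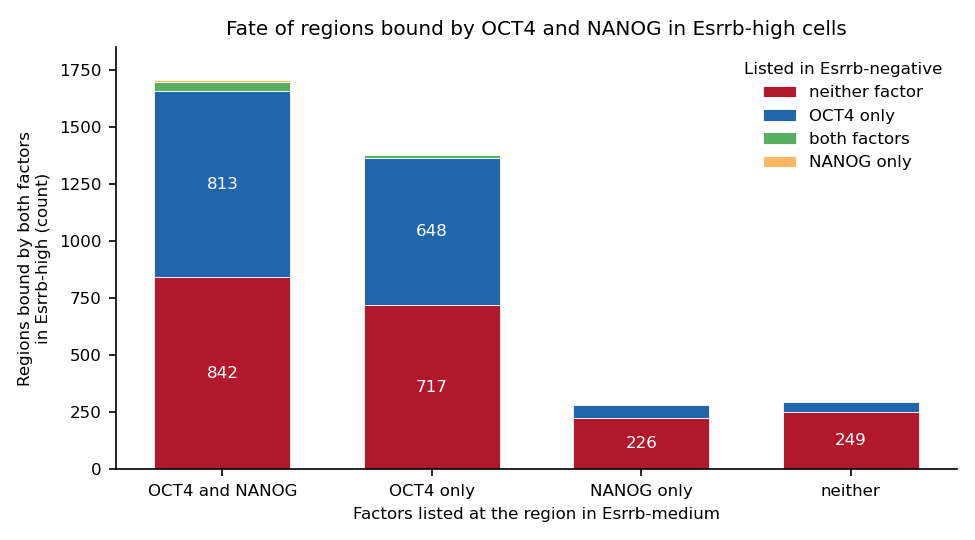
Counts of the 3675 regions bound by OCT4 and NANOG in Esrrb-high cells (vertical axis), by the factors listed there in Esrrb-medium (bars) and in Esrrb-negative (colours; the smallest segments carry no number). The medium-retained Class I regions are the lowest segment of the left bar, 842 of 1706 regions with both factors in medium.

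Of the 3675 regions bound by both factors in Esrrb-high cells, 1706 (46.4%) still had both factors in Esrrb-medium. In Esrrb-negative cells 842 of these 1706 (49.4%, 95% interval 47.0% to 51.7%) had neither factor and are the regions described here. A further 813 (47.7%) kept OCT4 alone, 43 kept both factors and 8 kept NANOG alone. The course of both factors across all OCT4 and all NANOG regions gives the background for these counts. Of all 12449 OCT4 regions of Esrrb-high cells, 45.1% were not listed in negative and 78.7% were listed in medium. Of all 9425 NANOG regions of Esrrb-high cells, 97.5% were not listed in negative and 47.7% were listed in medium. Because these same lists chose the regions, the counts are a description and nothing is read from them.

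Where OCT4 but not NANOG was listed in medium, 721 of 1382 regions (52.2%, 49.5% to 54.8%) had no OCT4 in negative. Among 6652 regions with OCT4 in high and medium and NANOG in neither, the count was 2484 (37.3%, 36.2% to 38.5%). In the plot of fates by medium state, regions without OCT4 in medium were far fewer, 287 with NANOG only and 300 with neither factor.

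Another 3 sets of regions serve for comparison. The closest is the 813 Class II regions that kept NANOG in medium, which differ from the medium-retained Class I regions in a single list entry, OCT4 in Esrrb-negative. The next is the 717 Class I regions that lost NANOG first, which differ only in NANOG in Esrrb-medium. The last is the 475 Class I regions that had lost OCT4 by medium. Sequence, position and neighbouring regions were not used to form any of the sets.

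Medium-retained Class I regions were between 40 and 840 bp wide with a median of 180 bp, the same median as in the Class II set and the NANOG-first set, against 160 bp in the set that lost OCT4 by medium. All 23767 regions had a median of 80 bp, and 21.0% of them had the minimum width of 40 bp, against 4 of the 842. Among the 1655 regions of the medium-retained and the Class II set, the share that lost OCT4 was close in narrow and in wide regions. OCT4 was missing in negative at 83 of 161 regions of 40 to 80 bp (51.6%, 43.9% to 59.1%) and at 196 of 370 regions of 300 bp or more (53.0%, 47.9% to 58.0%). The median GC content of the 200 bp around the centre was 47.0%, also 47.0% in the Class II set and 46.5% in the NANOG-first set. The probability that a medium-retained region had the higher GC content was 0.486 (DeLong 95% interval 0.458 to 0.513) against the Class II set and 0.521 (0.492 to 0.549) against the NANOG-first set, and both intervals included an even chance. Against regions that lost OCT4 by medium, with a median of 44.5%, it was 0.625 (0.593 to 0.656).

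The regions were found on all autosomes and X, from 0.126 per Mb on chromosome X to 0.525 per Mb on chromosome 11. Chromosome X held 2.49% of them and 2.28% of all regions, and chromosome 11 held 7.60% and 6.48%. Relative to transcription start sites of GENCODE genes, 56 lay within 1 kb of one (6.65%), 15 in an exon (1.78%), 305 in an intron (36.2%) and 466 between genes (55.3%). Over all 23767 regions the shares were 8.90%, 2.26%, 35.8% and 53.1%. None of the 12 odds ratios against the 3 sets had a widened interval that left out 1. The share near a start site against the Class II set had an odds ratio of 1.02 (95% interval 0.693 to 1.51), and introns had 1.13 (0.923 to 1.38). The median distance to a start site of a protein-coding gene was 22.0 kb, and 178 regions (21.1%) lay more than 100 kb away. Over all 23767 regions the median was 23.75 kb and the share beyond 100 kb 20.5%. That share was 24.8% in the Class II set, 25.4% in the NANOG-first set and 25.1% in the set that lost OCT4 by medium.

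Medium-retained Class I regions carried fewer Oct-Sox elements and more ESRRB sites than Class II regions that kept NANOG in medium. Oct-Sox matches, counted within 100 bp of each centre, were found in 76 of 842 medium-retained regions (9.03%, 7.27% to 11.2%) and 137 of 813 Class II regions (16.9%, 14.4% to 19.6%). The odds ratio was 0.490 (95% interval 0.363 to 0.660, widened for 30 comparisons 0.303 to 0.791). An ESRRB match was present in 175 medium-retained regions (20.8%, 18.2% to 23.7%) and in 115 Class II regions (14.1%, 11.9% to 16.7%). Its odds ratio was 1.59 (1.23 to 2.06, widened 1.05 to 2.41). Both intervals left out 1 after widening, and these were the only 2 of the 30 comparisons (10 motifs against 3 sets) for which that was so. The ESRRB call was lost with windows of 50 bp either side (odds ratio 1.59, 1.10 to 2.29) and with exact matches only (1.04, 0.496 to 2.16), and the Oct-Sox call with at most 1 mismatch (0.325, 0.157 to 0.671). Among the sequences above, the second Esrrb region has an Oct-Sox match, and those at Il6st, Lifr, Etv5, Jam2 and Klf2 have ESRRB matches. Regions with more motifs were shown first, so these sequences are examples and do not bear on the shares.

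**Figure D2:**
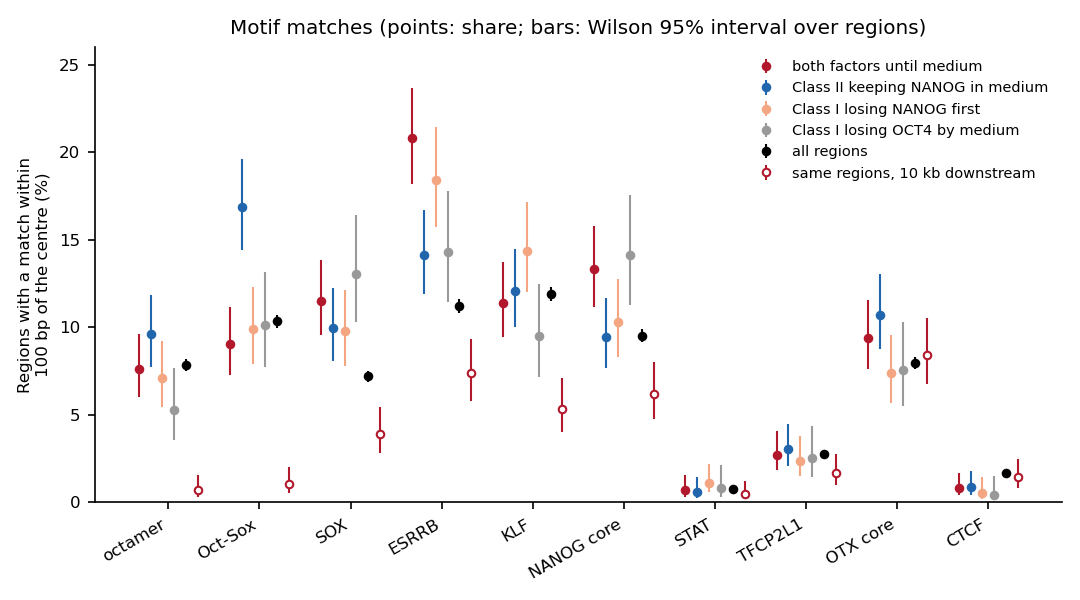
Share of regions with a motif match within 100 bp of the centre (vertical axis, %) for 10 motifs, in the medium-retained Class I regions, the 3 comparison sets, all 23767 regions and windows 10 kb downstream of the medium-retained regions (open circles); points are shares and bars are Wilson 95% intervals over regions. ESRRB is highest in the medium-retained regions (20.8%) and Oct-Sox in the Class II set (16.9%).

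Both motifs were more frequent at the regions than beside them. In windows 10 kb downstream of the same regions, Oct-Sox was found in 1.07% and ESRRB in 7.36%, which gave odds ratios of the centre against downstream of 9.18 (4.57 to 18.5) and 3.30 (2.43 to 4.49). Over all 23767 regions the shares were 10.3% for Oct-Sox and 11.2% for ESRRB. The Oct-Sox share of the medium-retained regions was therefore close to that of all bound regions, and its ESRRB share above it. The letters of the ESRRB site read backwards were found in 5.11% of the medium-retained regions.

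The Oct-Sox difference was larger for closer matches, which is given here as a description. In the 1655 regions of the medium-retained and the Class II set, OCT4 was missing in negative at 10 of 37 regions whose best Oct-Sox match had 1 mismatch (27.0%, 15.4% to 43.0%) and at 66 of 174 with 2 mismatches (37.9%, 31.1% to 45.3%). With 3 mismatches it was missing at 234 of 512 (45.7%, 41.4% to 50.03%), and with 4 at 314 of 550 (57.1%, 52.9% to 61.2%). Regions whose best match had 5 or more mismatches lost OCT4 in 57.4% (52.3% to 62.2%). The share that lost OCT4 was thus higher at each step from 1 to 4 mismatches, while neighbouring steps had overlapping intervals at the stronger matches. Only 2 regions had an exact match, and both kept OCT4.

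For ESRRB the share that lost OCT4 was higher for closer matches from 3 mismatches to 1. OCT4 was missing in negative at 160 of 261 regions with 1 mismatch to the ESRRB site (61.3%, 55.3% to 67.0%), 349 of 684 with 2 (51.0%, 47.3% to 54.8%) and 310 of 665 with 3 (46.6%, 42.9% to 50.4%). At 29 regions with an exact match it was missing at 15 (51.7%, 34.4% to 68.6%), an interval that covers all of these values.

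**Figure D3:**
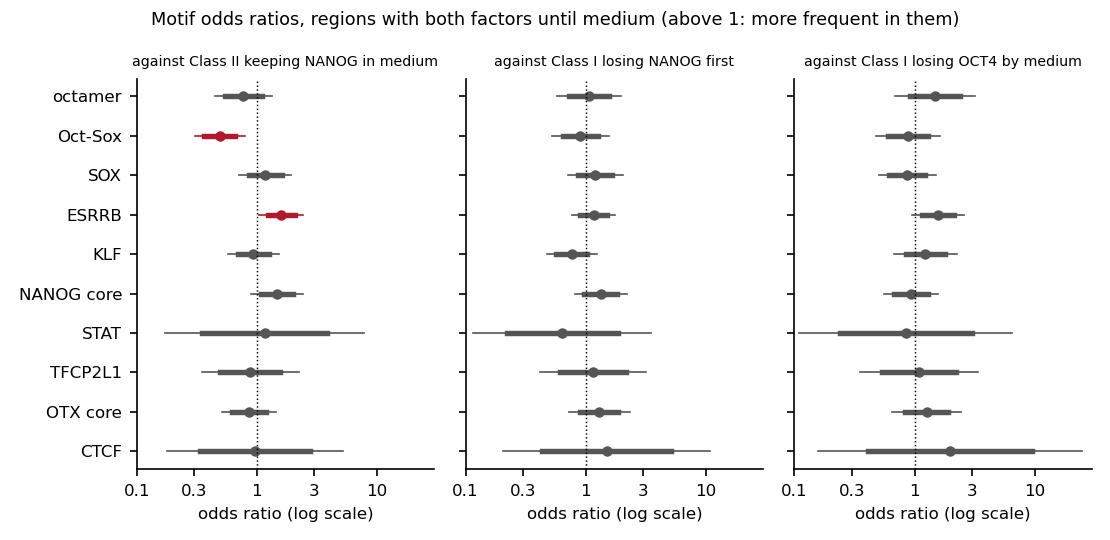
Odds ratio of holding each motif (horizontal axis, log scale) for the medium-retained Class I regions against each comparison set; points are odds ratios, thick bars 95% Wald intervals and thin bars the intervals widened for 30 comparisons. The 2 red entries, Oct-Sox (0.490) and ESRRB (1.59) against the Class II set, are those whose widened interval leaves out 1.

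For the remaining motifs the widened intervals against the Class II set included 1. The octamer, counted with or without a SOX element beside it, was found in 7.60% of medium-retained and 9.59% of Class II regions and in 7.86% of all regions (odds ratio 0.775, 0.549 to 1.10). The homeodomain core bound by NANOG was found in 13.3% against 9.47%, and in 9.52% of all regions, with an odds ratio of 1.47 whose single interval left out 1 (1.08 to 1.99) and whose widened interval did not (0.895 to 2.40). SOX sites (ACAATGG), bound by SOX2 and its relatives, were found in 11.5% against 9.96%, and KLF sites in 11.4% against 12.1%, where all regions had 7.19% and 11.9%. The OTX-type core GGATTA was found in 9.38% against 10.7%, in 7.95% of all regions and in 8.43% of the downstream windows. STAT (TTCCNGGAA), TFCP2L1 (CCAG, 6 bases, CCAG) and CTCF (CCANNAG followed by NNGGC) sites were present in 6, 23 and 7 of the 842 regions, so their intervals were wide. All 23767 regions held them in 0.791%, 2.76% and 1.68%. CTCF is an insulator protein outside the pluripotency network, and its odds ratio was 0.965 (0.337 to 2.76).

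Against Class I regions that lost NANOG first, no difference in motif content was found beyond its interval. None of the 10 motifs had a widened interval that left out 1, and none had a single interval that did. Oct-Sox was found in 9.03% against 9.90% (odds ratio 0.903, 0.643 to 1.27) and ESRRB in 20.8% against 18.4% (1.16, 0.904 to 1.50). These intervals still allow odds ratios for Oct-Sox from 0.643 to 1.27, so the sets are not shown to be alike. Against regions that lost OCT4 by medium, ESRRB was at 20.8% against 14.3%, with an odds ratio of 1.57 (1.16 to 2.13) whose widened interval included 1 (0.961 to 2.57).

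Both kinds of element together were present in few regions. Of the 842 regions, 119 (14.1%) held an octamer or Oct-Sox match, 175 held an ESRRB match and 18 held both. In all, 276 (32.8%, 29.7% to 36.0%) held at least 1 of the 3, against 33.7% of Class II regions, and 319 (37.9%) held none of the 10 motifs. The share with none was 38.6% in the Class II set, 41.0% in the NANOG-first set and 42.3% in the set that lost OCT4 by medium. OCT4 was missing in negative at 157 of 251 regions with ESRRB and without octamer or Oct-Sox (62.5%, 56.4% to 68.3%) and at 101 of 260 with the reverse (38.8%, 33.1% to 44.9%). Regions with neither lay between them, at 566 of 1105 (51.2%, 48.3% to 54.2%). Among regions without an octamer or Oct-Sox match the ESRRB odds ratio was 1.59 (1.20 to 2.11), and among those with one it was 1.35 (0.686 to 2.66) on 39 regions with ESRRB.

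**Figure D4:**
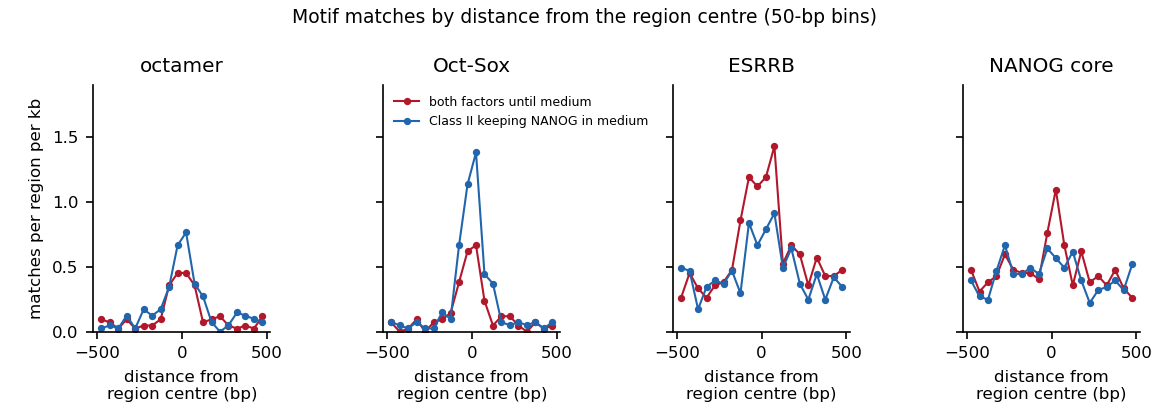
Motif matches per region per kb (vertical axis) in 50-bp bins by distance from the region centre (horizontal axis, bp) for 4 motifs, in the medium-retained Class I regions and the Class II set. Oct-Sox peaks at the centre in both sets and is higher in Class II regions, whereas ESRRB forms a wider plateau that is higher in the medium-retained regions.

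Matches were concentrated at the centre of the regions. Oct-Sox matches occurred at 0.641 per region per kb within 50 bp of the centre in the medium-retained set and at 1.25 in the Class II set, and beyond 300 bp at 0.0416 and 0.0554. ESRRB matches occurred at 1.15 per region per kb within 50 bp and at 1.31 between 50 and 100 bp, against 0.726 and 0.873 in the Class II set. Beyond 300 bp both sets had similar densities of ESRRB matches, 0.401 and 0.366. The homeodomain core was at 0.926 within 50 bp against 0.603, and at 0.377 and 0.369 beyond 300 bp.

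A search over all 6-mers, with each counted together with its reverse complement, needed no motif to be named. Against the Class II set 2 had a widened interval that left out 1, 0.0962% of those compared, both lower in the medium-retained regions. TGCAAA, which is inside the octamer, was present in 216 of 842 regions (25.7%) against 310 of 813 (38.1%), with an odds ratio of 0.560 (0.454 to 0.690). TGCTAA was present in 146 (17.3%) against 214 (26.3%), with an odds ratio of 0.587 (0.463 to 0.744), which was not called within 50 bp of the centre (0.657). No 6-mer was called higher, although 121 had a single 95% interval above 1 and 117 had one below 1. Against Class I regions that lost NANOG first, 0% were called, with 57 single intervals above and 48 below 1.

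Neighbouring regions were different intervals from the selected ones and were not used to choose them, but they were called in the same 6 libraries. Within 10 kb, 417 of the 842 regions (49.5%, 46.2% to 52.9%) had another bound region of any list, against 56.0% in the Class II set. The odds ratio was 0.772 (0.636 to 0.937), and the interval widened for 6 comparisons just included 1 (0.595 to 1.00). A region that still had OCT4 in negative lay within 10 kb of 196 medium-retained regions (23.3%, 20.5% to 26.2%), and a region listed for NANOG in negative within 10 kb of 5. Another region with OCT4 in high but not in negative lay within 10 kb of a similar number, 193 (22.9%, 20.2% to 25.9%). A Class II region of the comparison set lay within 10 kb of 30 of them (3.56%).

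Other OCT4 regions close to the medium-retained regions were compared with those close to Class II regions, and the widened interval of the odds ratio of their loss in negative included 1. Within 20 kb of a medium-retained region and not of a Class II region, 235 of 456 OCT4 regions of Esrrb-high cells were missing in negative (51.5%, 47.0% to 56.1%). Within 20 kb of a Class II region and not of a medium-retained one it was 210 of 462 (45.5%, 41.0% to 50.01%), which gave an odds ratio of 1.28 (0.985 to 1.65). With 10 kb in place of 20 kb the odds ratio was 1.48 (1.09 to 2.02) and with 50 kb 1.30 (1.07 to 1.60), and both widened intervals then left out 1. Among neighbours that also had NANOG in high the shares were 65.9% (60 of 91) and 65.4% (51 of 78), and among those without NANOG 47.9% (175 of 365) and 41.4% (159 of 384). The 9826 OCT4 regions near neither set were missing in 43.7%. For NANOG regions nearby the interval of the odds ratio included 1. By Esrrb-medium, 163 of 337 NANOG regions near medium-retained regions were missing (48.4%, 43.1% to 53.7%), against 137 of 258 near regions that lost NANOG first (53.1%, 47.0% to 59.1%; odds ratio 0.827, 0.598 to 1.14).

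Groups of medium-retained regions were rare. In 18 groups linked at 10 kb or less there were 37 regions, 4.39% of all, and a group spanned between 420 bp and 9.77 kb. The share was 5.29% in the Class II set (odds ratio 0.823, 0.525 to 1.29) and 0.842% in the set that lost OCT4 by medium (odds ratio 5.41, widened interval 1.34 to 21.9). With 5 kb in place of 10 kb the last ratio was 3.90 and no longer called. A larger set has more chances of a neighbour of its own, and this was not corrected for. The only group of 3 lay 107 to 111 kb beyond the start of Sox2, the gene of OCT4's partner, within 4690 bp (chr3:34655432-34655871, chr3:34656772-34657231 and chr3:34660032-34660651). These 3 were wide, 440, 460 and 620 bp. Within 100 bp of the centre only the second held any of the 10 motifs, a homeodomain core. The next 4 groups by the order of the chromosomes were pairs: 610 bp apart near Vmn1r1 on chromosome 1 with an ESRRB match in each, in Trim2, in Tet2, and 590 bp apart beyond AI427809 on chromosome 4.

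Near genes, the medium-retained regions were spread thinly. Within 20 kb of a gene body, 552 of 842 (65.6%, 62.3% to 68.7%) had a protein-coding gene, and 736 of 22380 such genes (3.29%) had at least 1 of the regions. For comparison, 2.88% of genes had a region of the Class II set and 2.62% a region of the NANOG-first set within 20 kb. Of these 736 genes, 698 had 1 region, 36 had 2 and 2 had 3. Between the sets 68 genes were shared, 9.24% of the genes near medium-retained regions and 10.6% of those near Class II regions. Binding near a gene does not show that the gene is its target.

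Of 105 genes on 9 lists of pluripotency, signalling, chromatin and lineage genes found in the annotation, 20 (19.0%) had a medium-retained region within 20 kb, against 3.29% of all protein-coding genes. The Class II set gave 27 of 105 (25.7%) against its own 2.88%, and the NANOG-first set 13 of 105 (12.4%) against 2.62%. In each of these sets the share of listed genes was above that of all genes, and 8 of the 20 also had a Class II region. By list, the genes with a medium-retained region were 5 of 20 naive factors, 2 of 11 core factors, 1 of 11 formative genes, 4 of 8 LIF and STAT3 genes, 1 of 11 FGF and ERK genes, 1 of 12 Nodal and BMP genes, 1 of 7 Wnt genes, 3 of 12 DNA and histone modifiers and 2 of 13 lineage factors.

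At the LIF and STAT3 pathway, medium-retained regions lay at the ligand, both receptor chains and the feedback inhibitor. The region at Lif, which encodes the cytokine itself, lay 11.1 kb before the gene body (chr11:4146312-4146491) and closer to the start site of Osm, which encodes a related cytokine. Those at Lifr, the ligand-binding chain, and at Il6st, the signalling chain gp130, lay 12.5 kb and 12.4 kb upstream, and their sequences above each hold ESRRB matches. The region upstream of Socs3, which encodes an inhibitor of the receptor's kinases, was 320 bp wide at chr11:117833992-117834311 and held an ESRRB and an OTX-type match. The other 4 genes of the list, Jak1, Stat3, Pim1 and Pim3, had none. The Class II set had a region at 1 of the 8 genes (Lifr), and the NANOG-first set at 0 of 8. On other lists the Class II set had more genes than the medium-retained regions. It had 7 naive factors against 5, 5 core factors against 2, and 4 Nodal and BMP genes against 1. It had 3 FGF and ERK genes against 1, 2 formative genes against 1, and 4 DNA and histone modifiers against 3. For Wnt genes both had 1, and for lineage factors the Class II set had 0 against 2.

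**Figure D5:**
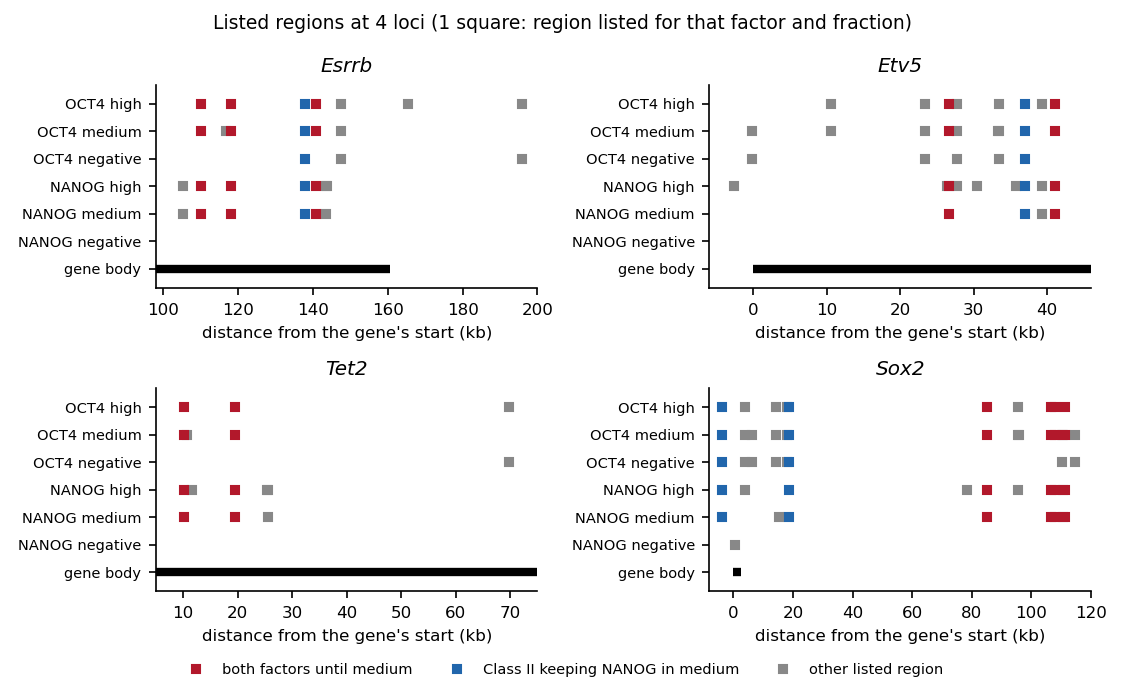
Regions listed for OCT4 and NANOG in each Esrrb population (rows) at 4 loci, by distance from the annotated start of the gene in kb (horizontal axis); each square is a listed region, red for medium-retained Class I, blue for the Class II set, grey for any other, and the black bar is the gene body. Red squares at Esrrb, Etv5, Tet2 and Sox2 end with the medium rows, and at Esrrb a blue one lies between red ones.

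Among naive pluripotency factors, Esrrb had 3 medium-retained regions, all inside the gene and 110 to 141 kb from its outermost annotated start. The region at chr12:87811892-87812131 lay 945 bp into the transcript of an internal start site, and the one at chr12:87819932-87820151 in an intron 8.98 kb beyond that start site. The third, at chr12:87842532-87843051, was 520 bp wide and held none of the motifs within 100 bp of its centre. A Class II region with a homeodomain core (chr12:87839812-87840111) lay between the second and the third, at 138 kb, and kept OCT4 in negative. Of 11 regions listed from 60 kb before to 200 kb behind the gene's start, 7 had OCT4 in high, 6 in medium and 3 in negative, and NANOG had 7, 6 and 0.

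Klf2, which encodes a Kruppel-like factor of the naive network, had a region 12.8 kb beyond the gene, shown above with its ESRRB match. Prdm14, a regulator that restrains FGF signalling and DNA methylation in ESCs, had one 4.99 kb upstream (chr1:13122232-13122371) with none of the motifs. Jam2, which encodes a junctional adhesion molecule, had one 4.62 kb upstream. Tdh, which encodes the threonine dehydrogenase on which mouse ESC metabolism depends, had one in an intron with an ESRRB match (chr14:64120732-64120911). Among core factors, Utf1 had a region 4.82 kb behind the gene with a KLF match, and Mycn had the widest of all 842, 840 bp at chr12:12949832-12950671, with its centre 1532 bp upstream of the start site.

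Etv5, an ETS factor induced by FGF and ERK signalling, had 2 regions, in introns 26.7 kb and 41.2 kb from the gene's start, and both hold an ESRRB match. A Class II region between them, 36.96 kb from the start (chr16:22402772-22402891), also held an ESRRB match and kept OCT4 in negative. The locus was densely bound, with 14 regions from 40 kb before to 80 kb behind the start, of which 5 were listed for OCT4 in negative and 0 for NANOG. Of these 14, 8 had OCT4 and 9 had NANOG in high.

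The 5-methylcytosine oxidase gene Tet2 had 2 medium-retained regions in introns, 10.1 kb (chr3:133197152-133197291, with a KLF match) and 19.5 kb (chr3:133187832-133187891, with none) from its start, and no Class II region. Tet3, a related oxidase, had an intronic region 19.5 kb from its start with a KLF match. Dnmt3b, a de novo DNA methyltransferase, had one 7.56 kb upstream with none of the motifs. Id3, a BMP-induced inhibitor of bHLH factors, had one 1002 bp beyond the gene, with a homeodomain core. Tcf7l1, a repressor of Wnt targets, had one 557 bp into a transcript with a KLF match. Zic2, a zinc-finger factor of the formative state, had one 7.19 kb upstream and closer to the start site of the divergent Zic5.

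Among lineage factors, Pax6, a neural and eye regulator, had a 740-bp region centred 706 bp upstream of a start site with a STAT match. Cdx2, a trophectoderm regulator, had a 440-bp region in an intron with none of the motifs within 100 bp of its centre. Across these 24 regions at listed genes, 8 held an ESRRB match (33.3%, against 20.8% of all 842) and 5 a KLF match (20.8% against 11.4%). An octamer was present in 3 (12.5% against 7.60%) and an Oct-Sox match in 1 (4.17% against 9.03%). By position, 11 were between genes, 9 in introns and 4 within 1 kb of a start site. The lists were chosen with earlier results of these data known, so these counts are descriptions.

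Outside the lists, Trim2, which encodes an E3 ubiquitin ligase best known from neurons, had 3 regions, 1 of them 112 bp upstream of a start site (chr3:83995532-83995631). The genes with 2 regions that come first by name were 2900011O08Rik, Adrb3 (an adrenergic receptor), Akap12 (a kinase-anchoring scaffold), Apobec3 (a cytidine deaminase of antiviral defence), Cbx7 (a Polycomb protein), Col18a1 (a basement membrane collagen), Ctif, Eftud2 (a spliceosomal GTPase), Etv5, Gjc1 (a connexin), Gm10655, Gm11077 and Gm20388. Apobec3 and Cbx7 shared the same 2 regions, both in introns of Apobec3, and Eftud2 and Gjc1 shared the same 2 as well. These counts are therefore not independent between neighbours.

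At start sites of protein-coding genes, 41 medium-retained regions lay within 1 kb and 28 of these upstream. The closest, centred 27 bp upstream of Ntn1 (chr11:68214212-68214491), a guidance cue gene, held an ESRRB match and a homeodomain core. The region 30 bp upstream of a Utrn start site (chr10:12334352-12334571), which encodes a dystrophin relative, held an octamer and an Oct-Sox match, and so did the one 233 bp upstream of Sms, the spermine synthase gene. Regions without any of the motifs lay at Ddc, Myo10, Trim2 and 4930519F16Rik. Those at Klhl5, Vrtn, Slc7a3 (a cationic amino acid transporter), Adap1 and Rsph4a held KLF matches, that at Wapal (a cohesin release factor) a SOX match, that at Gjc1 an OTX-type match and that at Gse1 an Oct-Sox match. After Mycn and Pax6, the widest regions were 720 bp near Pde4d, and 700 bp each at Mllt6 and near Dlc1.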

How the data were processed

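OCT4 and NANOG ChIP-Seq libraries of sorted E-GFPd1 ESCs were grouped by antibody and sorted fraction as the labels give them. The deposited files are position lists with no score. Per the study's methods the authors used GeneProf for alignment and SISSRs for peak calling and joined peaks that overlapped between libraries. They called a region lost where under 50% of its highest depth-normalised signal remained. Bowtie is named in the submitters' processing notes, without a version, and coordinates are mm9. Each start was read as 0-based and is printed 1-based.

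Lists were joined by exact interval. Sequence came from the NCBIM37 assembly, of the same build, and genes from GENCODE M1, with 22380 protein-coding genes. Matches were searched on both strands within 100 bp of the centre. Overlapping motifs (octamer, Oct-Sox and SOX) were counted separately. Shares carry Wilson 95% intervals, odds ratios Wald intervals, also widened for the comparisons of their family (Bonferroni), which decided a call. The GC comparison carries DeLong intervals. No p-value was computed, since each condition had 1 library. All 28 known answers in 5000 simulated regions were recovered.

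The regions, motifs and gene lists were chosen with earlier results of these data known. Genes named are listed genes with a region within 20 kb, up to 15 genes with the most regions, up to 15 regions closest to a start site within 1 kb, the widest 5 and the 5 largest groups. Sequences shown are up to 8 regions of up to 300 bp at listed genes, those with most motifs first. Alternatives changed windows, mismatches, distances, joining of regions and stratification by GC, width or the other factor. Python 3.11.15, numpy 2.4.6, scipy 1.17.1, pysam 0.24.0 and samtools 1.23.1 were used.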

Additional observations from a re-analysis of the deposited data

How the results depend on the processing

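No paired analysis was possible because each factor and population has 1 library, and no library could be left out for the same reason. Across 375 recomputed values no called odds ratio reversed, and 25 motif odds ratios not called in either setting crossed 1. The count of regions ranged from 759 (at least 100 bp wide) to 880 (regions within 100 bp joined), and exact matching and overlap gave the same 842. The Oct-Sox odds ratio against the Class II set was called under each alternative except the changed mismatches (at most 1 for Oct-Sox, none for ESRRB, 1 for octamer, KLF and STAT), where 10 medium-retained regions had a match and it was 0.325. The ESRRB odds ratio was not called with windows of 50 bp either side (1.59) or with exact matches only (1.04). Called motifs were then 1 in each case, at 50 bp Oct-Sox and with changed mismatches the octamer, at 0.603. With changed mismatches 1 motif, KLF, was also called against regions that lost OCT4 by medium, with an odds ratio of 1.54. After the data were seen, Oct-Sox with up to 3 mismatches (0.559), ESRRB stratified by octamer or Oct-Sox (1.55) and Oct-Sox stratified by ESRRB (0.504) were added, and each was called. The share with an octamer, Oct-Sox or ESRRB match moved with the window (17.3% at 50 bp, 47.0% at 250 bp) and with the mismatches (42.3%). Against the Class II set 4 6-mers were called within 50 bp and 3 with stratification by GC. GC of the regions themselves separated 2 sets in place of 1. Clustering calls were 0 at 5 kb, where the ratio for own neighbours against regions that lost OCT4 by medium was 3.90, and 3 at 50 kb. The OCT4 neighbour ratio was called at 10 kb (1.48) and at 50 kb (1.30) but not at 20 kb. Genes numbered 435 within 5 kb and 1283 within 50 kb. The cause of these changes was not tested, and the lists give no depth from which a limit of detection could be set.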
